A study of Homo sapiens with 6 samples.

Results

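The Krueppel-like factors (KLFs) are zinc finger transcription factors, and 11 genes of the family were represented on two-colour arrays by 13 probes, out of 14080 probes and 8987 genes with a probe of their own. The members were all probes whose single gene symbol in the platform annotation was KLF followed by a number, namely KLF1, KLF2 (2 probes), KLF3, KLF5, KLF6, KLF7, KLF8, KLF10, KLF11 (2 probes), KLF12 and KLF13. The arrays compared emetine-treated with untreated cells of GM00156, a cell line of the Coriell repository whose cell type the labels do not state. Emetine blocks the translation of mRNA into protein, and actinomycin D blocks the synthesis of new RNA. Treated cells received 100 µg/ml emetine for 10 h and untreated cells were incubated for the same time. Actinomycin D at 5 µg/ml was then given to both, and cells were harvested after 0 min, 10 min, 30 min, 1 h and 8 h. At each harvest, mRNA of treated cells labelled with Cy3 was hybridised together with mRNA of untreated cells labelled with Cy5 on 1 array. A self-self array carried emetine-treated mRNA of the 0 min harvest in both channels, and its label does not mention actinomycin D.

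Each value is a log2 ratio of the channels, and the labels do not state which channel is the denominator. A positive value is therefore on one side of 0 and a negative value on the other, with neither read as more mRNA in treated or in untreated cells. Ratios within an array carry no level, so levels of the KLFs cannot be compared with each other and the kind of cell cannot be checked against its markers. In these bulk samples fewer cells of a type and less RNA per cell cannot be told apart. Array medians lay between 0.05 and 0.15 on the 5 harvests and at 0.01 on the self-self array. The robust SD over probes was 0.44, 0.91, 0.78, 0.53 and 0.87 at 0 min, 10 min, 30 min, 1 h and 8 h, and 0.12 on the self-self array. The 1 h array stood apart at the positive end, where 1% of its probes exceeded 1.35, against 2.32 to 3.69 on the other harvests. For the 0 min array the channel names give treated and untreated cells, whereas its description speaks of treated against treated. KLF results whose side of the threshold changed without the 0 min or the 1 h array are given with and without it.

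KLF proteins bind GC-rich and CACCC-type promoter elements through zinc fingers at the C-terminus, and their divergent N-termini recruit different partners. KLF1, KLF2, KLF5, KLF6 and KLF7 are counted among the activators that bind histone acetyltransferases. KLF3, KLF8 and KLF12 repress by recruiting CtBP, and KLF10, KLF11 and KLF13 repress by recruiting SIN3A and its histone deacetylases. KLF10 and KLF11 were first described as early genes induced by TGF-beta, and KLF6, KLF10, KLF5 and KLF2 are known in many cells as early-response genes with short-lived mRNAs.

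The upstream sequences of KLF5 and KLF6 are shown because these genes and KLF10 had the highest ratios of the family, and because the KLFs bind motifs of this kind. They come from RefSeq on GRCh38.p14, 5′ to 3′ on the gene's strand. They cover the 250 bases before an annotated start, and capitals mark GC boxes (GGGCGG) and CACCC boxes (CACCC) on either strand.
KLF5, start 1, chr13:73054726-73054975, plus strand: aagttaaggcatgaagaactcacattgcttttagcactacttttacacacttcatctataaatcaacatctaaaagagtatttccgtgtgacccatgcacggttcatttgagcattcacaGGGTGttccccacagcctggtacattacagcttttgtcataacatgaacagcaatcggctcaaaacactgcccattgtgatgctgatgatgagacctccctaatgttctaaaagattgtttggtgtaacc
KLF5, start 2, chr13:73058755-73059004, plus strand: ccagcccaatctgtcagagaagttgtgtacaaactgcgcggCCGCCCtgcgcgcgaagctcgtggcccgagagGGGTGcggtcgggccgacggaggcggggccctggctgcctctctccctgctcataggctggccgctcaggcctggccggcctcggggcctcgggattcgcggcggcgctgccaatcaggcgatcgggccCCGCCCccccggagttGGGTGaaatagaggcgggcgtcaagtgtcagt
KLF6, chr10:3785210-3785459, minus strand: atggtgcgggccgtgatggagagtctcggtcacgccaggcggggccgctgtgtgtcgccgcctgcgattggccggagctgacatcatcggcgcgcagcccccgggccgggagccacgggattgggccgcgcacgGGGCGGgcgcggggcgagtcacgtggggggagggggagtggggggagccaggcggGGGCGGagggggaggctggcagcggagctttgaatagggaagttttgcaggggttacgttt
The KLF6 window held 2 GC boxes and 0 CACCC boxes. At KLF5, the window of start 1 held 1 CACCC box and the letters TATAAA, and that of start 2 held 2 GC boxes and 2 CACCC boxes. Windows were read for 9 of the 11 genes, 20 in all, and KLF3 and KLF10 are named only. A GC box was found in 11 of the 20, against 42.6% of all 35116 windows of the same length, and a CACCC box likewise in 11 of the 20, against 54.7%. The cAMP response element TGACGTCA occurred in 1 window (KLF11) against 1.65% of all windows, TATAAA in 1 against 10.7%, and a CArG box in 1 (KLF7) against 1.16%. A match is a run of letters and is not evidence of binding.

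KLF10, KLF5 and KLF6 had the highest ratios of the family, with means over the harvests of 3.89, 3.72 and 2.87 on the log2 scale, which are ratios of 14.9, 13.1 and 7.30 between the channels. KLF7, KLF12, KLF3, 1 probe of KLF2 and 1 probe of KLF11 were also positive, and the other KLF2 probe was negative. Whether a mean over the 5 harvests differed from 0 was tested with limma across all 13151 probes measured on every harvest, with a line over time in the model and Benjamini-Hochberg adjusted p under 0.05 as the threshold. Each harvest has 1 array, so the spread behind every p is that of the harvests around the line. The labels do not say whether the harvests came from separate cultures. Of the 12 KLF probes tested, 8 passed with a positive mean, 1 passed with a negative mean and 3 did not pass. That is 75.0% of the KLF probes, against 61.3% of all probes. Of all probes, 35.0% passed with a positive and 26.3% with a negative mean. The median mean of the KLF probes was 0.93, against 0.12 over all probes tested. Without the 0 min array the positive KLF count was 9, and without the 1 h array it was also 9. When means were compared with the single self-self array and not with 0, 2 of all probes and 0 KLF probes passed, and KLF10 had an adjusted p of 0.176.

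**Figure D1:**
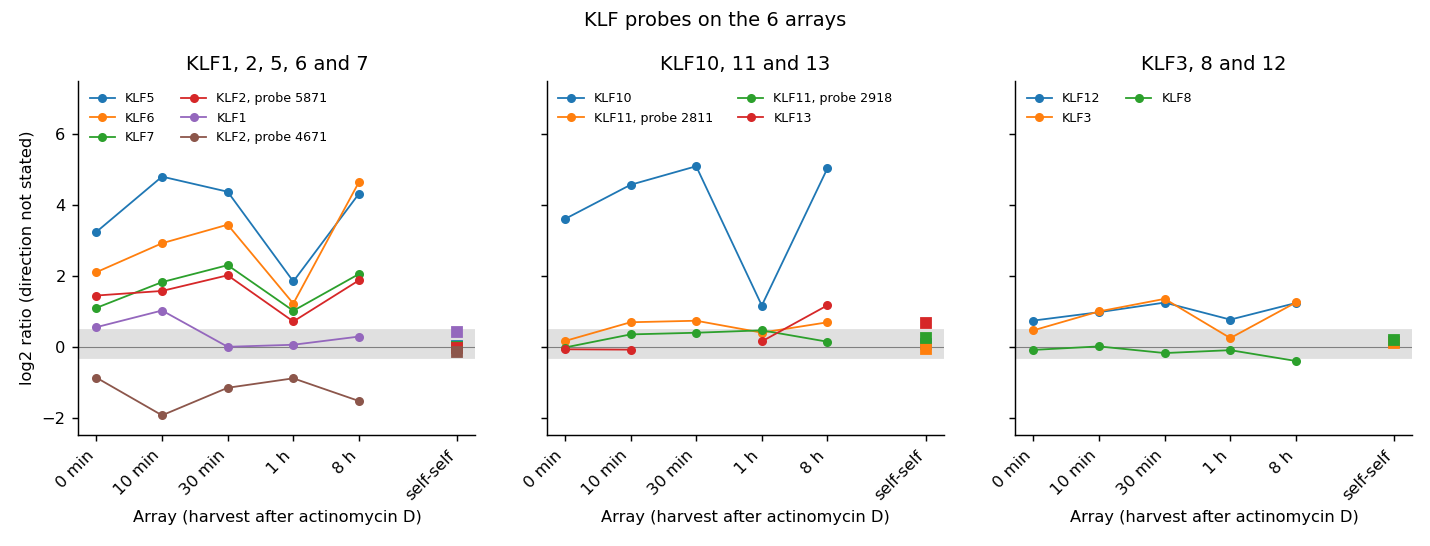
Log2 ratio of each KLF probe (vertical axis, direction not stated) on the 5 harvest arrays, joined by lines in time order, and on the self-self array (squares), with 1 array per point; panels hold KLF1, 2, 5, 6 and 7, then KLF10, 11 and 13, then KLF3, 8 and 12, and the grey band is the central 99% of all probes on the self-self array. KLF10, KLF5 and KLF6 lie above the band on every harvest and drop at 1 h, and KLF2 probe 4671 lies below it throughout.

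Among the activators, KLF5, a factor of proliferating epithelial cells, had log2 ratios of 3.24, 4.80, 4.37, 1.84 and 4.32 at 0 min, 10 min, 30 min, 1 h and 8 h, and 0.01 on the self-self array. Every harvest was above the self-self array, with the lowest value at 1 h. Its mean was 3.72 ± 0.39 (SE, 5 arrays; limma, adjusted p = 0.000499).

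KLF6, a broadly expressed factor described as a growth suppressor, had 2.10, 2.92, 3.44, 1.22 and 4.65 on the harvests in time order, and -0.05 on the self-self array. It was highest at 8 h, where it was 2.54 above its 0 min value, and lowest at 1 h. Its mean was 2.87 ± 0.35 (limma, adjusted p = 0.000551). The slope over time was 0.36 ± 0.18 per doubling of the time after adding 10 min, with an unadjusted p of 0.0842 and an adjusted p of 0.447 in the limma fit. Without the 1 h array this slope was 0.43 and past the threshold (limma, adjusted p = 0.00874), the only KLF probe to be so, where 4.44% of all probes passed, 3.98% with a positive slope. Without the 8 h array it was -0.19 (adjusted p = 1.0).

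KLF7, studied mainly in the nervous system, had 1.10, 1.82, 2.30, 1.01 and 2.05 on the harvests, and 0.01 on the self-self array. It was highest at 30 min and lowest at 1 h, and the mean was 1.66 ± 0.20 (limma, adjusted p = 0.000537). KLF1, the erythroid factor that activates beta-globin, had 0.55, 1.02, -0.00, 0.05 and 0.29 on the harvests, and 0.41 on the self-self array. Only 0 min and 10 min were above the self-self value, and the mean of 0.38 ± 0.16 was not past the threshold (limma, adjusted p = 0.0665). With 1 array left out the mean of KLF1 ran from 0.22 without 10 min (adjusted p = 0.222) to 0.48 without 30 min, and it passed only without 1 h (0.46, adjusted p = 0.0372). Against the self-self array it was -0.030.

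The probes of KLF2, known for holding endothelial cells and lymphocytes quiescent, lay on opposite sides of 0. Probe 5871 had 1.44, 1.57, 2.02, 0.71 and 1.87 on the harvests, and -0.05 on the self-self array. Probe 4671 had -0.87, -1.94, -1.16, -0.89 and -1.53, and -0.15 on the self-self array. The probes did not overlap on any harvest, although both are annotated with the same GenBank record. Their means were 1.52 ± 0.19 (limma, adjusted p = 0.000572) and -1.28 ± 0.18 (adjusted p = 0.000725), a difference of 2.80. Among 4017 pairs of probes that share a record, the median difference was 0.14 and 23 pairs (0.573%) were farther apart than the KLF2 pair. Of the 2309 pairs with both probes past the threshold, 118 (5.11%) were on opposite sides. The direction of KLF2 is therefore not given here, and its 2-probe average of 0.12 is not used as a level.

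Among the SIN3A-binding repressors, KLF10 had 3.61, 4.57, 5.09, 1.16 and 5.04 on the harvests, and 0.08 on the self-self array. All harvests lay above the self-self array, with 1 h the lowest. Its mean was 3.89 ± 0.52 (limma, adjusted p = 0.000666), and its slope over time was not past the threshold (adjusted p = 0.928).

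KLF11, the second TGF-beta-inducible early gene, had 0.16, 0.69, 0.73, 0.40 and 0.69 at probe 2811 and -0.06 there on the self-self array. The mean of this probe was 0.53 ± 0.13 (limma, adjusted p = 0.00745). Probe 2918 had -0.02, 0.35, 0.39, 0.46 and 0.14, with 0.24 on the self-self array. All 5 harvests of probe 2918 lay within the central 99% of the self-self array, and its mean of 0.26 ± 0.12 was not past the threshold (adjusted p = 0.0939). The mean of probe 2918 was 0.34 without the 0 min array (adjusted p = 0.0457) and 0.17 with arrays centred (adjusted p = 0.271).

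KLF13, an activator of the chemokine gene CCL5 in T cells, had -0.07, -0.08, 0.15 and 1.17 at 0 min, 10 min, 1 h and 8 h. At 30 min it carried the value that this array repeats at 534 probes, which was taken as not measured, so KLF13 was not tested. Its self-self value of 0.68 was exceeded by 0.386% of probes, and only the 8 h value was above it.

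Among the CtBP-binding repressors, KLF12, known as a repressor of the AP-2alpha gene, had 0.74, 0.97, 1.25, 0.76 and 1.23 on the harvests, and 0.13 on the self-self array. The 5 values spanned 0.74 to 1.25, and the mean was 0.99 ± 0.12 (limma, adjusted p = 0.000572). KLF3, the basic KLF of blood and fat cells, had 0.46, 1.00, 1.35, 0.24 and 1.25, and 0.10 on the self-self array. It was above the self-self value on every harvest, with 1 h lowest, and its mean was 0.86 ± 0.18 (adjusted p = 0.00408). KLF8 had -0.09, 0.01, -0.18, -0.10 and -0.40, and 0.20 on the self-self array. Every harvest was below the self-self value, but the mean of -0.15 ± 0.11 was not past the threshold (adjusted p = 0.252). It was -0.25 with arrays scaled (adjusted p = 0.0319) and -0.090 without 8 h (adjusted p = 0.594).

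By group, 4 of 6 activator probes passed with a positive mean and 1 with a negative mean, with a median of 1.59. The 3 tested probes of SIN3A-binding repressors gave 2 positive and 0 negative with a median of 0.53, and the 3 of CtBP-binding repressors gave 2 positive and 0 negative with a median of 0.86. Both KLF2 probes are counted among the activators, on opposite sides. Of all probes 61.3% passed, 35.0% with a positive and 26.3% with a negative mean. With 3 to 6 probes each, no order of the groups is read from these medians, and no difference from all probes is read from the counts.

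**Figure D2:**
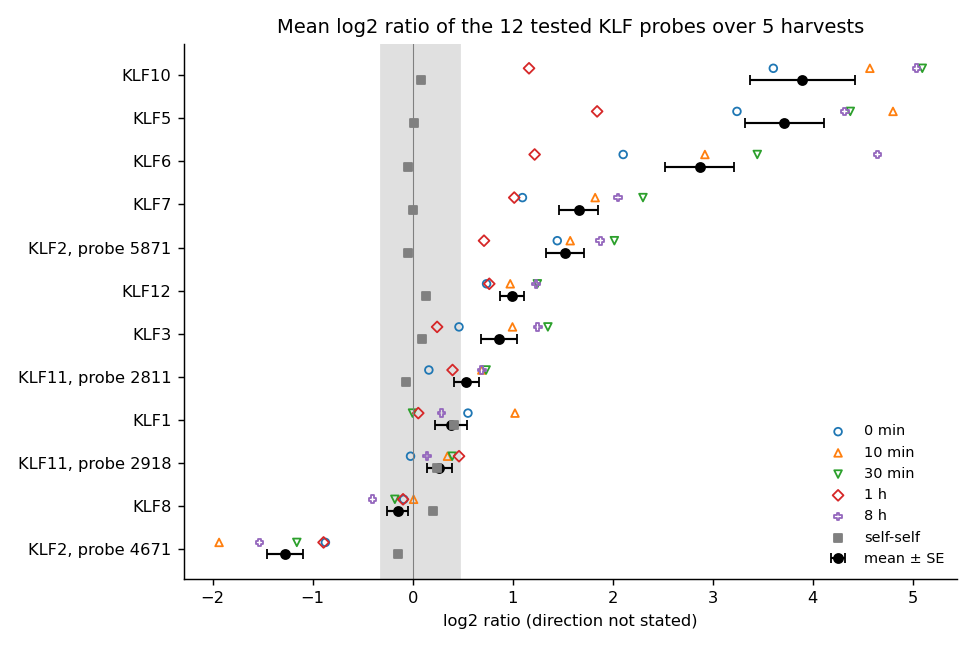
Mean log2 ratio over the 5 harvests for each tested KLF probe (black points, direction not stated) with the SE of the limma fit (bars), in order of the mean, with the single harvests as open symbols and the self-self array as grey squares; the grey band is the central 99% of the self-self array. KLF10, KLF5 and KLF6 stand at 3.89, 3.72 and 2.87, followed by KLF7 at 1.66, and KLF2 probe 4671 is the only one below -1.

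In the order of the means, several neighbours did not differ beyond their spread over the 5 arrays. KLF10 exceeded KLF5 by 0.18 ± 0.62 (SD of the differences within arrays) and on 3 of 5 arrays. KLF5 exceeded KLF6 by 0.85 ± 0.80 and on 4 of 5 arrays, and KLF6 exceeded KLF7 by 1.21 ± 0.86 on all 5. KLF7 exceeded probe 5871 of KLF2 by 0.13 ± 0.27, and KLF12 exceeded KLF3 by 0.13 ± 0.26. These are differences between ratios and not between levels. KLF10 minus KLF6 was 1.50, 1.65, 1.65, -0.06 and 0.39 at 0 min, 10 min, 30 min, 1 h and 8 h, and 0.13 on the self-self array. The ratio of KLF10 was thus the higher on 4 of 5 harvests, by 1.03 ± 0.80 on average (SD, n = 5; exact two-sided sign-flip test, p = 0.125, where 0.0625 is the smallest p that 5 arrays allow). Leaving out 1 array at a time gave 0.87 to 1.30. The 1.30 was without the 1 h array (exact two-sided sign-flip test, p = 0.125, the smallest p that 4 arrays allow).

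Set against the whole arrays, KLF10 and KLF5 stood near the positive end on every harvest, also where all large ratios were smaller. The share of probes with a higher ratio than KLF10 was 0.182%, 0.168%, 0.125%, 2.23% and 0.227% in time order. For KLF5 it was 0.263%, 0.124%, 0.288%, 0.132% and 0.52%, so KLF5 kept its place at 1 h. For KLF6 it was 1.29%, 1.0%, 0.635%, 1.83% and 0.373%. From 30 min to 1 h the log2 ratio differed by -3.93 for KLF10, -2.53 for KLF5, -2.23 for KLF6, -1.29 for KLF7 and -0.48 for KLF12. The 1 h array as a whole lacked large positive values, and the part of that in the KLF values was not tested. No slope over time passed the threshold for any KLF probe in the limma fit, with adjusted p from 0.447 to 0.976, and none of the 12 had an unadjusted p under 0.05. Over all probes 0.0% passed, with 1870 at an unadjusted p under 0.05. With time in minutes 3.33% of all probes and 0 KLF probes passed.

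**Figure D3:**
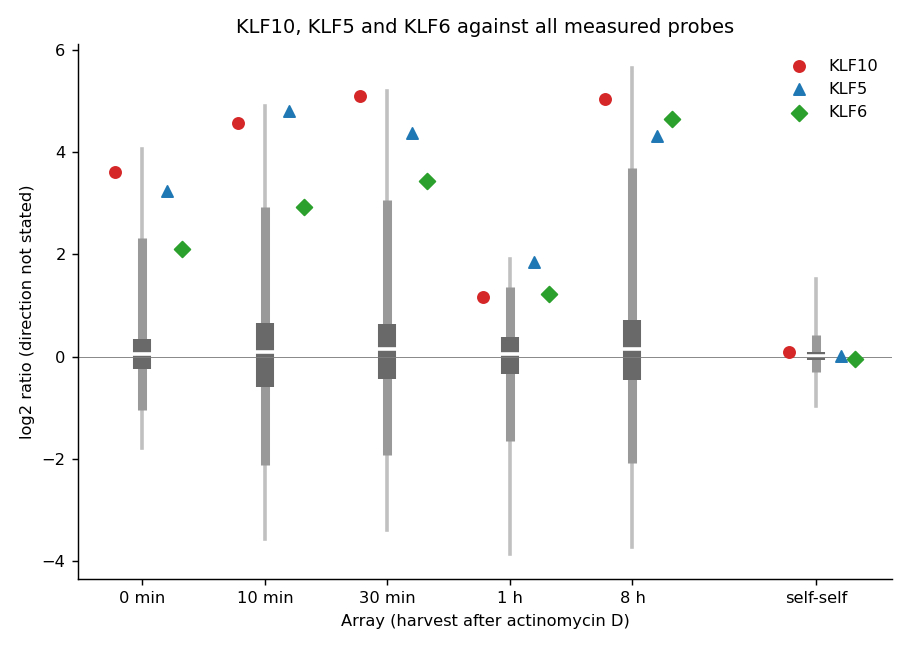
Log2 ratios (vertical axis, direction not stated) of all measured probes on each array, with the median as a white line, dark bars for the middle 50% of probes, light bars for the middle 98% and thin lines for the middle 99.8%, and with KLF10, KLF5 and KLF6 as symbols. KLF10 reaches 5.09 at 30 min and 1.16 at 1 h, an array on which 1% of probes exceed 1.35, and all 3 genes lie near 0 on the self-self array.

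With no test, each harvest was also read against the central 99% of the self-self array, which ran from -0.32 to 0.47. Of the 12 KLF probes measured on all 6 arrays, 7, 9, 8, 6 and 8 lay above it in time order, against 18.6%, 33.2%, 33.3%, 19.2% and 33.5% of all probes. Below it lay 1, 1, 1, 1 and 2, against 20.8%, 34.1%, 29.9%, 26.4% and 29.8%. KLF5, KLF6, KLF7, KLF10, KLF12 and probe 5871 of KLF2 were above the range on all 5 harvests (6 of 12, against 10.5% of all probes), and probe 4671 of KLF2 was below it on all 5 (1 of 12, against 13.1%). Outside the range on either side lay 8, 10, 9, 7 and 10 KLF probes in time order. With a limit of 1 log2 unit these counts were 5, 7, 8, 4 and 8, and with all arrays scaled to equal spread, which widens the self-self range, they were 3, 2, 3, 0 and 3.

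The genes most like KLF10 were sought by the root mean square difference in log2 ratio over the 6 arrays, among 8715 genes with the KLFs left out. They were JUN, a subunit of AP-1 (0.238), the mitochondrial carrier SLC25A25 (0.245), the cyclin CCNL1 (0.282), the AP-1 subunit JUNB (0.292) and the chemokine CXCL3 (0.311). JUN, for example, had 3.84, 4.36, 5.12, 0.99 and 5.49 on the harvests and 0.07 on the self-self array. The genes most like KLF6 were others, namely FAM110B (0.209), the bradykinin receptor BDKRB1 (0.250), MAPK1IP1L (0.256), the aryl hydrocarbon receptor AHR (0.269) and CDKN2AIP (0.280). FAM110B had 1.84, 2.79, 3.39, 1.40 and 4.28 on the harvests. Within the family, KLF5 differed from KLF10 by 0.530, with 15 genes closer to KLF10, and KLF6 differed from KLF10 by 1.15, with 53 genes closer.

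**Figure D4:**
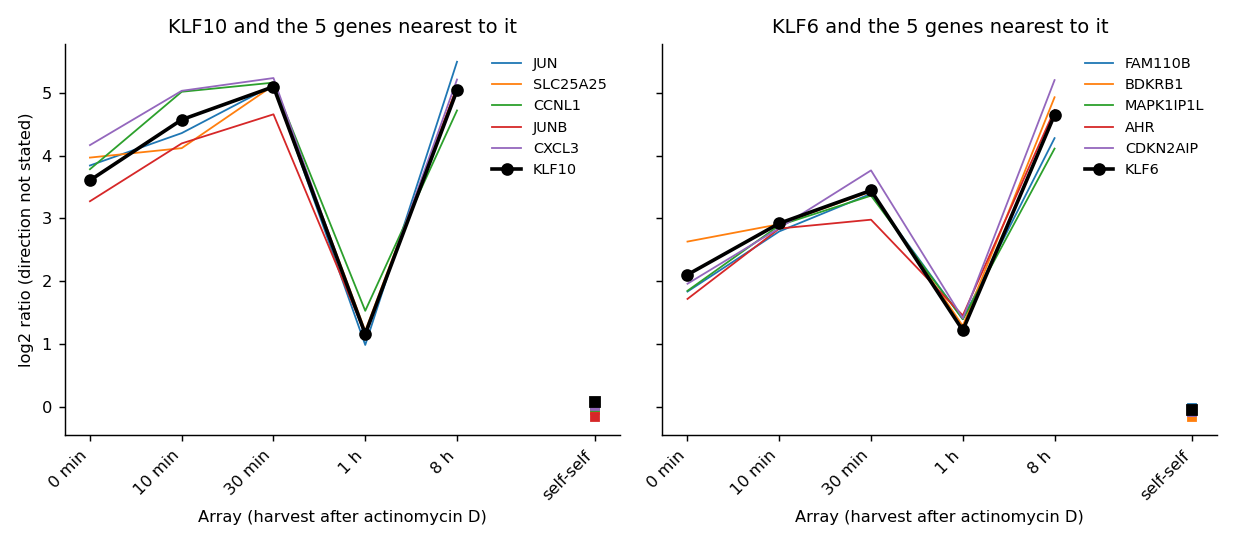
Log2 ratios on the 6 arrays (direction not stated) of KLF10 and of KLF6, each with the 5 genes nearest to it by root mean square difference; lines join the harvests and squares are the self-self array. JUN is nearest to KLF10 (0.238) and FAM110B to KLF6 (0.209), and the curves of both sets drop at 1 h.

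Related genes were then read with the probes of a gene averaged, where 62.4% of 8748 genes passed, 37.0% with a positive and 25.3% with a negative mean, and the median mean was 0.14. The SP factors, which bind the same GC boxes as the KLFs, had 3 of 4 tested genes positive and 0 negative, with a median of 0.50. SP4 averaged 0.66, SP3 0.50 and SP2 0.50. The SP3 mean was 0.28 without the 8 h array (limma, adjusted p = 0.174), and 2 SP genes were positive without 30 min, without 8 h, with arrays centred or scaled, and with a mean alone in the fit. SP1 averaged 0.09 over probes at 0.51 and -0.33, and was -0.01 once each array was centred on its median. The largest SP mean was thus below those of KLF10, KLF5 and KLF6. Of transcription factor genes known as immediate-early, other than KLFs, 16 of 20 were positive and 0 negative, with a median of 1.55. EGR4 (5.22), ATF3 (4.35), NR4A3 (4.22) and FOS (4.11) had the largest means, and KLF10 at 3.89 came next after these and JUN (3.96).

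In the TGF-beta pathway, to which KLF10 and KLF11 respond, 20 of 43 genes were positive and 13 negative, with a median of 0.24. Of all genes tested, 37.0% were positive and 25.3% negative. Of the list of ligands and carriers, 2 of 7 were positive and 3 negative, with TGFB2 at 1.64 and TGFB3 at 1.01. LTBP2, a matrix protein listed here for its membership of the LTBP family, was at -1.25, and LTBP1 was at -0.69. Of the receptors, 4 of 7 were positive and 2 negative, with ACVR2A at 0.76, ACVR1 at 0.75, ACVRL1 at 0.73 and the co-receptor ENG at -0.67. Without the 30 min array 0 receptors were negative, and ACVRL1 did not pass without 0 min (limma, adjusted p = 0.0521). The SMAD proteins and their anchor ZFYVE9 had 4 of 6 positive and 1 negative, with SMAD3 at 1.58, SMAD1 at 0.86, SMAD4 at 0.52 and ZFYVE9 at -0.48. The SMAD4 mean rests on its 8 h value of 1.89, against 0.07 to 0.34 on the other harvests, and was 0.18 without that array (limma, adjusted p = 0.257). With a mean alone in the fit, 2 SMADs were positive. The inhibitors of the pathway had the highest median, 1.03, with 5 of 8 positive and 1 negative. These were led by SKIL (2.92) and TGIF1 (1.86), corepressors that bind SMADs, the inhibitory SMAD7 (1.79) and the ubiquitin ligase SMURF2 (1.29). With arrays centred 2 inhibitors were negative, and without the 30 min or without the 8 h array 0 were. Known targets were divided, with 5 of 15 positive and 6 negative and a median of 0.03. JUNB was at 3.68 and ID3 at 1.99 (1.08 without its 8 h value of 5.65), and the matrix genes COL1A1 and TGFBI were at -1.68 and -1.58.

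Partners through which the KLFs act lay on both sides of 0. Of all genes tested, 37.0% passed with a positive and 25.3% with a negative mean, so lying on both sides is not particular to these lists. Of the SIN3, histone deacetylase and CtBP corepressors, 4 of 11 were positive and 2 negative, with a median of -0.03. ARID4B (1.30) and KDM5B (1.28), which associate with SIN3 or histone deacetylase complexes, SIN3A itself (0.50) and HDAC1 (-0.91) had the largest means. With each array centred on its median, or also scaled, 3 corepressors were positive and 4 negative, and without the 10 min or without the 30 min array 2 were positive and 1 negative. SIN3A did not pass with arrays scaled (0.40, limma, adjusted p = 0.0642) or without the 0 min, 10 min or 30 min array. The acetyltransferases CREBBP (1.08) and KAT2B (0.38) were both positive, and 1 of the 2 was so with centring, with a mean alone in the fit, or without the 10 min, the 30 min or the 1 h array. Without 10 min KAT2B averaged 0.25. Genes reported as targets of KLF6 had 3 of 11 positive and 4 negative, with a median of 0.12. ATF3 was at 4.35 and ACVRL1 at 0.73, and COL1A1 at -1.68 and the membrane metalloproteinase MMP14 at -1.22.

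**Figure D5:**
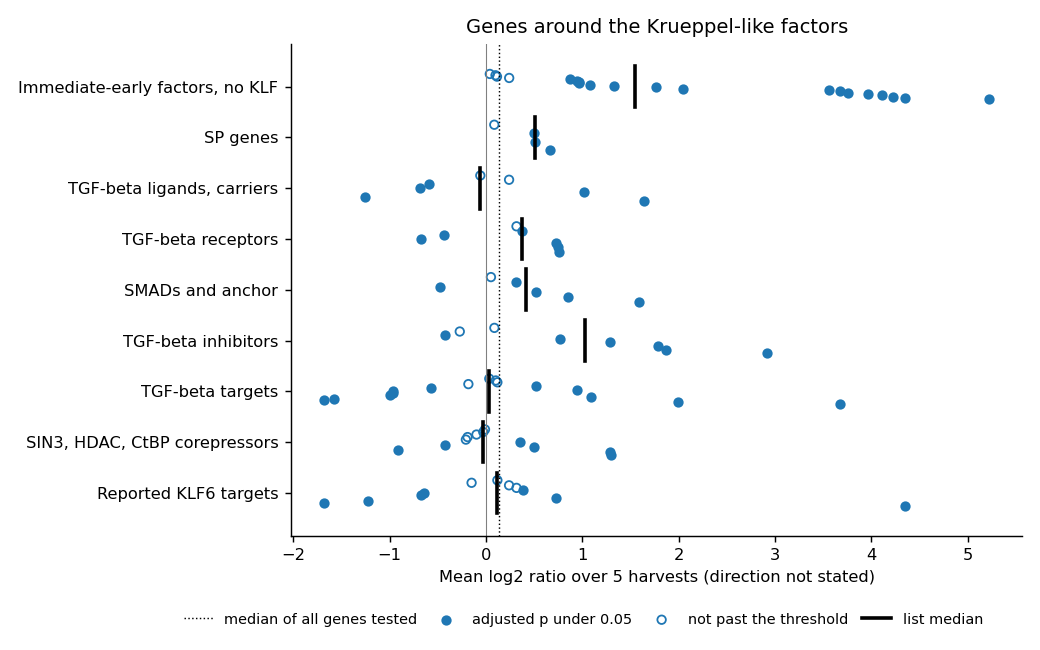
Mean log2 ratio over the 5 harvests (horizontal axis, direction not stated) of each tested gene in the lists around the KLFs; filled points have an adjusted p under 0.05, open points do not, black bars are list medians and the dotted line is the median of all genes tested, 0.14. The immediate-early factors have the highest list median, 1.55, and the inhibitors of TGF-beta signalling the next, 1.03.

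Lists of cell type markers were read the same way, against the 62.4% of all genes that passed (37.0% positive, 25.3% negative). Of fibroblast markers, 14 of 18 were negative and 1 positive, with a median of -0.87, led by TIMP3 at -2.81. Of B lymphocyte markers 3 of 11 were positive and 0 negative, of T and NK cell markers 5 of 12 were positive and 0 negative, and of epithelial markers 2 of 11 were positive and 2 negative. The median was 0.23 for B lymphocyte, 0.28 for T and NK cell and 0.03 for epithelial markers, and BLK at 2.53 was the largest of the B lymphocyte markers. With 1 array left out at a time, 1 to 4 B lymphocyte markers were positive (1 without 10 min or 30 min) and 0 to 1 negative (1 without 0 min or 8 h), and 3 to 5 T and NK cell markers were positive (3 without 10 min, 30 min or 1 h) and 0 to 1 negative (1 without 10 min). Of epithelial markers 0 to 3 were then positive (1 without 10 min or 30 min, 0 without 8 h) and 2 to 4 negative (4 without 0 min). With each array centred on its median, 2 B lymphocyte markers were positive and 1 negative, 3 T and NK cell markers positive and 3 negative, and 1 epithelial marker positive and 5 negative. The counts of these 3 lists thus changed with the zero of the arrays as well as with the arrays left out. Fibroblast markers had 1 positive and 15 negative with centring. The part of these marker ratios in the KLF values was not tested.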

How the data were processed

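Two-colour arrays measured mRNA of GM00156 cells, 1 array per harvest and 1 self-self array. The authors deposited a log2 ratio per probe and array. Per the labels, spot intensities were background-subtracted, ratios were normalised slide by slide against housekeeping genes with ratio statistics, and ratios with a quality below 0.5 were discarded. That zero rests on housekeeping genes, so a shift shared by them moves every ratio of an array. The base 2 was inferred because, on that base, 99.5% to 100.0% of an array's ratios are whole multiples of 1 in 10000 (tolerance 0.05). Direction is not stated.

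A value repeated at 333 to 534 probes of an array was treated as not measured. Of 14080 probes, 11304 have 1 gene symbol in the platform annotation, 446 several and 2330 none, and 11282 of the first matched RefSeq. Probes measured on all 5 harvests (13151) were fitted with limma 3.58.1 in R 4.3.3 as a mean and a slope on log2 of 1 plus minutes over 10, with Benjamini-Hochberg adjustment over all of them. The method was tested on simulated data with independent noise, set smaller than the SD of the probes over the harvests. These data had no effect shared by the probes of an array. The simulation therefore does not test calls at the spread of the real probes, or under such shared effects, as at 1 h. The number of arrays limits the precision. Genes named are all KLFs, the 5 genes nearest to KLF10 and to KLF6, and up to 4 per list with the largest mean. The KLF genes and the lists were chosen with earlier results of these data known. Alternatives covered array centring, scaling, repeated values, probe averaging, time scale, the level compared with and each array left out.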

Additional observations from a re-analysis of the deposited data

How the results depend on the processing

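KLF10, KLF5, KLF6, KLF7, KLF12, KLF3, probe 2811 of KLF11 and both KLF2 probes kept their direction and their side of the threshold under array centring, scaling, kept repeated values, a mean without a slope and every array left out. Compared with the self-self array rather than with 0, 2 probes passed in place of 8056, and of KLF probes 0 positive and 0 negative ones. KLF10 was then 3.81 and KLF6 2.91, in a fit that compares with 1 array. KLF1 was then -0.030, because its self-self value of 0.41 was above its mean of 0.38. Leaving out 1 array gave 6233 to 7971 probes, 8 to 9 positive KLF probes, and means of 3.59 to 4.58 for KLF10 and 2.42 to 3.28 for KLF6. Scaling made 2 KLF probes negative, KLF8 being the added one (adjusted p = 0.0319). Centring each array on its median made 48.1% of the probes past the threshold positive, against 57.1% as deposited, and SP1 -0.011.

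Slopes past the threshold numbered 0 as deposited, 1 with centring, 23 with scaling, 438 with time in minutes, 1 with probes averaged per gene, and 0 to 584 with 1 array left out, the 584 without 1 h. Of KLF probes 0 to 1 passed. The KLF10 slope was 0.10 as deposited, -0.26 with scaling, -0.054 on the rank of the harvest and -0.66 to 0.20 with 1 array left out. The KLF6 slope was -0.19 to 0.43 with 1 array left out. Probes outside the self-self range numbered 5155, 8810, 8264, 5970 and 8297 in time order, but 952, 3628, 2748, 1087 and 3675 with a limit of 1 log2 unit and 341, 143, 238, 230 and 276 with arrays scaled. Scaling widened the self-self array by construction. For the other changes the cause was not tested.

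Arrays could not be paired by replicate because each harvest has 1 array and the labels give no replicate numbers. Only genes on the same array were paired, as for KLF10 minus KLF6. With 1 array per harvest, unknown direction, a housekeeping zero and the label conflict at 0 min, the tests show only that ratios differed from 0 beyond their spread between harvests. Treated mRNA carried Cy3 and untreated mRNA Cy5 at each harvest, so from the harvests alone a dye effect cannot be told apart from treatment. The self-self array, with the same mRNA in both channels, shows the ratio of each probe without treatment, on 1 array only. It read 0.08 for KLF10, 0.01 for KLF5 and -0.05 for KLF6, but 0.41 for KLF1 and 0.68 for KLF13. The part of a dye effect in the harvest ratios was not tested. Dim and bright spots cannot be told apart from ratios.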

Other observations

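KLF9, which belongs to the SIN3A-binding group, has no probe of its own, but 1 probe is annotated with both SMC5, a subunit of a chromosome maintenance complex, and KLF9. It had log2 ratios of 0.67, 0.73, 0.46, 0.11 and -0.08 at 0 min, 10 min, 30 min, 1 h and 8 h, and -0.06 on the self-self array. Its mean was 0.38 ± 0.11 (limma, adjusted p = 0.0210). The ratios were highest on the 2 earliest harvests and nearest to 0 on the 2 latest. Which of the genes the probe measured is not known.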
